A study of Mus musculus with 32 samples.

Results

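The adenylyl cyclase family was examined in brown adipose tissue of mice lacking ChREBP isoforms. The members are the 10 genes Adcy1 to Adcy10, and they were measured through every array probe that carries their name. Of 18 such probes, 14 passed the filter on dim signals, and these 14 covered 9 of the 10 genes, out of 24523 gene names and 37306 probes that passed in all. The family was chosen by the measured fall of Adcy10 in total ChREBP KO mice, so the values of Adcy10 in that comparison, in the difference between the KO effects and between the WT groups are given as a description without a test.

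RNA of the interscapular depot of C57BL6/J males was hybridised to 32 single-colour arrays, 8 in each of 4 groups. Total ChREBP KO mice are Mlxipl-null and lack both the α and the β isoform. They were set against the WT mice of their line (total-line WT). ChREBPβ KO mice lack exon 1b of Mlxipl, the exon specific to the β isoform, which was removed with Cas9 and a pair of guide RNAs in embryos. These mice were set against WT littermates of their line (ChREBPβ-line WT). All mice were fasted for 24 hours and then refed for 18 hours with food and water holding 20% glucose. The age of the mice was not given in the sources used here. The deletions are present in all cells of the mice, and bulk tissue cannot tell fewer cells of a type from less RNA per cell.

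Adenylyl cyclases make cyclic AMP (cAMP) from ATP. The transmembrane enzymes Adcy1 to Adcy9 take their signal from G proteins, and in brown fat noradrenaline acts through β-adrenergic receptors, Gs and these enzymes to raise cAMP, which activates protein kinase A (PKA) and with it lipolysis and heat production by Ucp1. The isoforms differ in their other inputs, such as Ca2+ with calmodulin, or the βγ subunits of G proteins. Adcy10 is the soluble adenylyl cyclase, which has no membrane anchor, responds to bicarbonate and Ca2+, and is not driven by G proteins.

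The targeted gene, the array quality and the tissue were checked first. The brightest Mlxipl probe had a mean log2 intensity of 16.15 ± 0.12 (SD, n = 8) in total-line WT and 13.67 ± 0.15 in total ChREBP KO. It had 16.34 ± 0.14 in ChREBPβ-line WT and 14.84 ± 0.10 in ChREBPβ KO. The probes of Mlxipl did not behave alike. Another had log2 differences of only 0.14 in total ChREBP KO and -0.08 in ChREBPβ KO, and a further one had -0.77 and -1.14. The arrays had 64.4% to 71.1% of their spots well above background and 0 saturated spots, and the median correlation between arrays of 1 group was 0.990 to 0.995. All 8 brown adipocyte markers, Ucp1 among them, were well above background on all arrays. Of these, 3 were higher and 2 lower in total ChREBP KO (median -0.03), 0 were called in ChREBPβ KO (3 at an unadjusted p under 0.05 by limma), and 2 were higher and 4 lower in ChREBPβ-line WT than in total-line WT (median -0.32). Markers of skeletal muscle followed line rather than genotype, with a mean log2 intensity over 8 genes of 12.78 to 16.28 in total-line WT, 14.41 to 15.91 in total ChREBP KO, 5.49 to 12.08 in ChREBPβ-line WT and 5.53 to 11.48 in ChREBPβ KO. The mean of 6 liver markers ranged from 5.28 to 13.50 between arrays, and limma called 0 of them in any comparison, with 1 at an unadjusted p under 0.05, between the WT groups.

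Adcy10 was read by 4 probes on chromosome 1 (mm9), and the sequences of the pair that match the RefSeq mRNA are shown because the strength of the fall differed between them. The upstream probe lies at chr1:167452031-167452090 and the brightest probe, whose listed span of 903 bases is longer than its 60 bases, at chr1:167505771-167506673, with 53740 bases between their starts. Each reads through at least 1 frame without a stop codon. Exon positions were not available on this build.
A_55_P2058995, upstream probe: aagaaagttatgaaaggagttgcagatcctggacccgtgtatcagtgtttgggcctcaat
A_51_P256747, brightest probe: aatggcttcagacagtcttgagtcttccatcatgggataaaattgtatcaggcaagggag
The other probes, A_55_P2715623 at 167505853 to 167505912 and A_55_P2715618 at 167506476 to 167506535, lie inside the span of the brightest probe and have a stop codon in all frames. The design lists no RefSeq mRNA for either. Levels of different probes cannot be compared with each other, so each probe was compared only with itself between groups.

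Soluble adenylyl cyclase mRNA was far lower in mice without either ChREBP isoform and moderately lower in mice without ChREBPβ. On the brightest probe, total-line WT arrays had log2 intensities of 11.22 to 12.02 with a median of 11.47, and total ChREBP KO arrays had 5.57 to 8.18 with a median of 6.21. The groups were 3.04 apart at their nearest arrays, and the highest KO value, that of replicate 7, stood above the other 7 KO arrays. ChREBPβ-line WT arrays ranged from 10.03 to 11.23 with a median of 11.06, and ChREBPβ KO arrays from 9.21 to 10.55 with a median of 9.61. These groups overlapped, because 2 WT arrays, at 10.03 and 10.11, lay among the KO values, but all 8 ChREBPβ KO arrays were below the mean of their WT group. Groups without overlap were seen for 0.432% of genes in this comparison. Adcy10 was well above background on all 32 arrays at this probe, so the low values of total ChREBP KO were measured and not bounds.

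**Figure D1:**
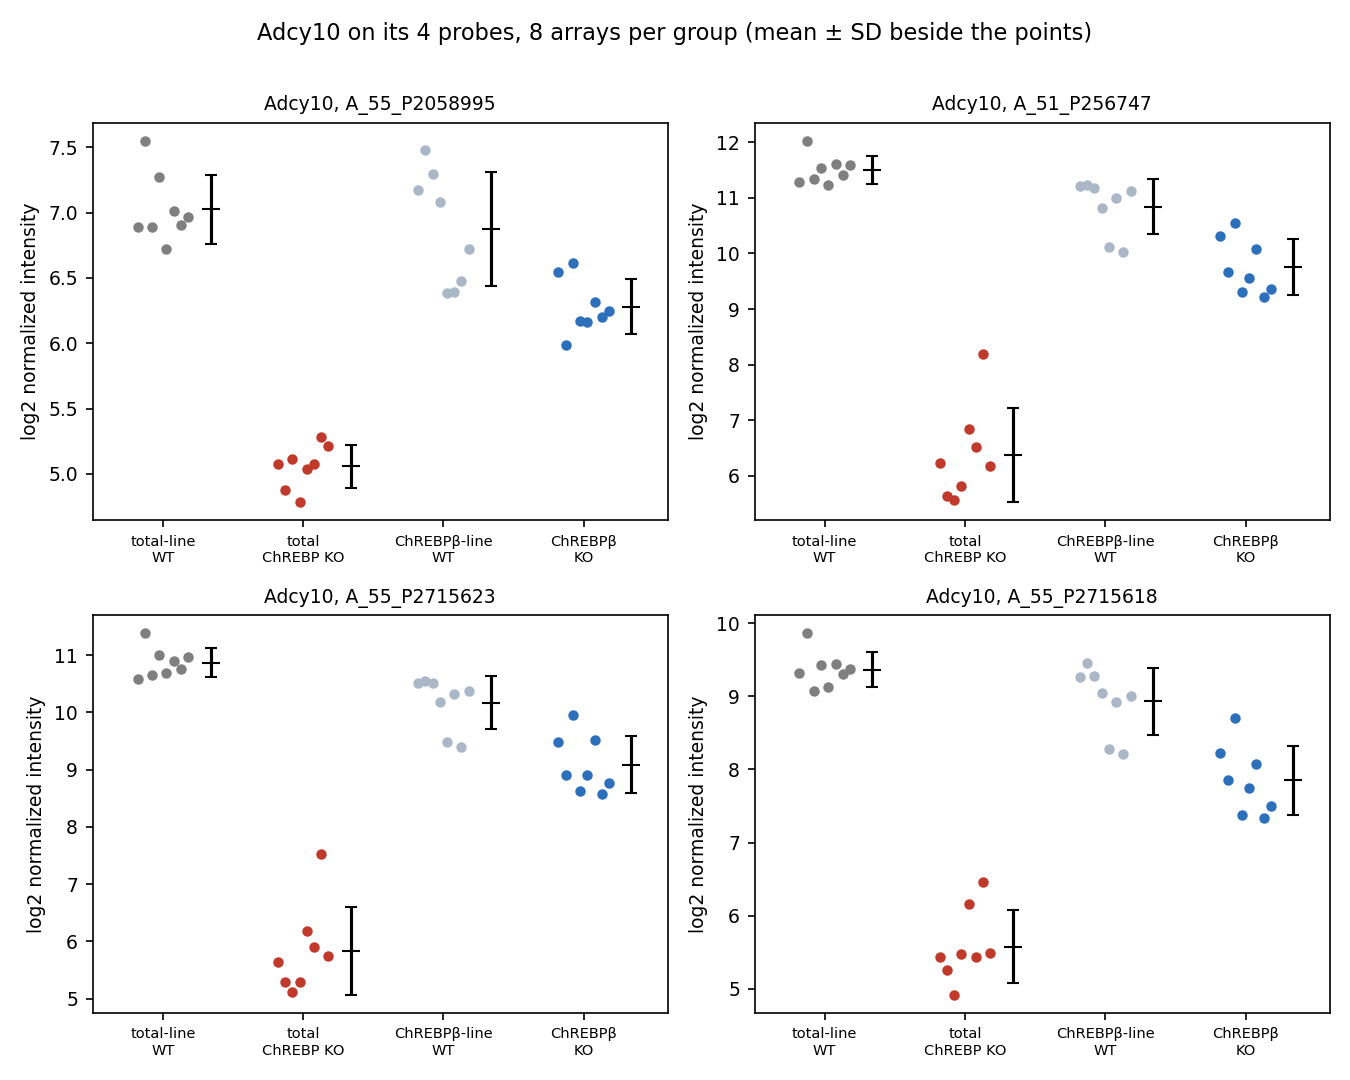
Log2 normalized intensity (y axis) of Adcy10 on each of its 4 probes by group (x axis), with 1 point per array (8 per group) and the group mean ± SD beside the points. On every probe all total ChREBP KO arrays lie below all other arrays, on the brightest probe at 5.57 to 8.18, and ChREBPβ KO lies between total ChREBP KO and the WT groups.

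The mean of the brightest probe was 11.50 ± 0.25 (SD, n = 8) in total-line WT and 6.37 ± 0.85 in total ChREBP KO, a log2 difference of -5.13 ± 0.27 (SE), or 34.9-fold lower. Among all genes by their brightest probe this was the 5th lowest difference, and 16.6% of genes had groups that did not overlap in this comparison. The same difference was -5.03 and -3.78 on the other downstream probes and -1.97 on the upstream probe. The raw median intensity of the upstream probe was 129 in total-line WT and 31.0 in total ChREBP KO, where it was well above background on 7 of 8 arrays. For comparison, the raw medians of the probes of Adcy8, which were never well above background, were 15.5 to 20.0 over the groups.

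In ChREBPβ KO the mean was 9.76 ± 0.50 against 10.84 ± 0.49 in ChREBPβ-line WT (SD, n = 8 each), a log2 difference of -1.08 ± 0.27 (SE), or 2.11-fold lower. The adjusted p was 0.0213 by limma, and the exact permutation test, two-sided, gave p = 0.00171. Adcy10 was the member called in this comparison, 1 of the 7 members tested or of 6 without Adcy2, which was not well above background in ChREBPβ KO, where 2.70% of all genes were called (1.33% as lower). All 4 probes passed, where 2.55% of all probes did, with log2 differences of -1.08, -1.08 and -1.08 for the downstream probes and -0.60 for the upstream probe, whose adjusted p values were 0.0213, 0.0125, 0.00197 and 0.0120. On the downstream probes the fall was the same size to 2 decimals. These probes lie close together, and with arrays set against their group mean they correlated at r = 0.92 to 0.99, so they are not independent. Whether they read the same transcript is not known, because the design lists the RefSeq mRNA for the brightest of them alone.

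The arrays were washed in 4 batches that held both genotypes, and Adcy10 was lower in the KO arrays within every batch. For the brightest probe the log2 difference in ChREBPβ KO was -1.41 in batch 1, -0.96 in batch 2, -0.65 in batch 3 and -0.66 in batch 4, with 1 to 3 arrays per genotype in each. In total ChREBP KO it was -5.76, -4.78, -5.00 and -4.39. The call in ChREBPβ KO was lost for the brightest probe when wash batch was a block (-0.87, adjusted p = 0.0701), with Agilent's processed signal (-1.13, adjusted p = 0.0559), without ChREBPβ KO replicate 4 (-1.02, adjusted p = 0.0513) and, for all 4 probes, when each of the 15 slides was a block (-0.51 to -0.76, adjusted p 0.184 to 0.490). With wash batch as a block the other 3 probes passed, with adjusted p values of 0.00485 to 0.0440. A_55_P2715623 also lost its call with the processed signal (adjusted p = 0.0619). The upstream probe lost its call in a fit of the ChREBPβ line alone (adjusted p = 0.0770). At an adjusted p under 0.01 only A_55_P2715618 passed.

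**Figure D2:**
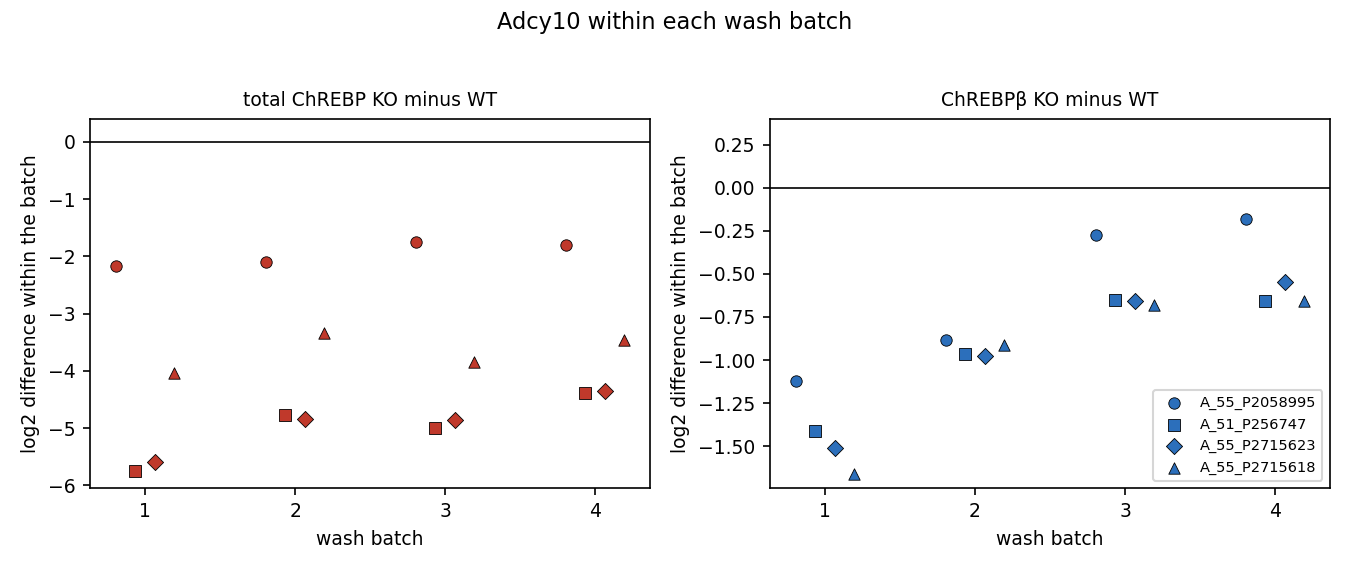
Log2 difference of Adcy10 (y axis) between KO and WT arrays of the same wash batch (x axis), for total ChREBP KO on the left and ChREBPβ KO on the right, with a symbol for each of the 4 probes. All points lie below 0, from -5.76 to -1.75 on the left and from -1.66 to -0.18 on the right, and the y axes differ.

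By level, the 4 groups ran from total-line WT through ChREBPβ-line WT and ChREBPβ KO to total ChREBP KO on all 4 probes. The WT groups were adjacent in this order. Their log2 difference on the brightest probe was -0.66 (ChREBPβ-line WT minus total-line WT), with all 8 ChREBPβ-line WT arrays below the total-line WT mean. The highest ChREBPβ-line WT array reached 11.23 there, and the lowest total-line WT array had 11.22. That difference was -0.70 on A_55_P2715623, -0.43 on A_55_P2715618 and -0.15 on the upstream probe. On A_55_P2715623 the WT groups did not overlap, as for 9.46% of genes by their brightest probe. ChREBPβ KO and total ChREBP KO were separated on every probe, on the brightest from 9.21 to 8.18. The difference between the KO effects was 4.05 on the log2 scale (95% interval 3.27 to 4.82), given without a test. With the mean of muscle and of liver markers of each array as covariates the fall in ChREBPβ KO was 1.07, and with the mean of macrophage markers it was 1.04, as log2 differences of -1.07 and -1.04.

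The promoter of Adcy10, which RefSeq places on chromosome 1 at 165484933 to 165485232 of GRCm38.p6 on the plus strand, was searched on both strands for the E-box letters CACGTG, alone or as a pair spaced by 5 bases, the ideal form of the site that ChREBP binds. Neither was in these 300 bases, which run from 250 before to 50 after the start of the gene. Of 32851 promoters of this length, 7.15% held CACGTG and 0 held the pair, which contains it. Promoters were listed for 8 of the 10 members, and 1 of these 11 sequences, that of Adcy1, held it. Binding sites with other letters, or outside the window, were not searched.

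Among the cyclases stimulated by Ca2+ and calmodulin, which are Adcy1, Adcy3 and Adcy8, Adcy3 changed. Its probe was well above background on 8 of 8 arrays in every group. The scanner software marked the spot as found on 4 arrays of total-line WT and 6 of total ChREBP KO. It did so on 6 of ChREBPβ-line WT and 3 of ChREBPβ KO, so the filter kept the probe through total ChREBP KO and ChREBPβ-line WT. Adcy3 had log2 intensities of 8.96 to 9.46 (median 9.17) in total-line WT and 9.29 to 10.24 (median 9.77) in total ChREBP KO, where all 8 arrays lay above the WT mean. It rose by 0.56 ± 0.13 (SE) on the log2 scale, or 1.47-fold (limma adjusted p = 0.000627, exact permutation p = 0.000932). ChREBPβ-line WT arrays spanned 8.20 to 8.79 (median 8.57) and ChREBPβ KO arrays 8.01 to 9.06 (median 8.73). That difference was 0.10, with a 95% interval of -0.16 to 0.36 and an adjusted p of 0.830. The difference between the KO effects was -0.46 (adjusted p = 0.0646), which does not pass. It passed when any 1 of 4 arrays was left out (adjusted p 0.0289 to 0.0384), with array weights (adjusted p = 0.0437) and with muscle and liver means as covariates (adjusted p = 0.0387). Adcy3 was lower in ChREBPβ-line WT than in total-line WT by 0.66 ± 0.13 on the log2 scale, with no overlap between the groups, where 9.46% of genes had none (adjusted p = 0.000119). Muscle and macrophage markers were lower in ChREBPβ-line WT as well, and the Adcy3 difference was -0.92 with muscle and liver means and -0.64 with the macrophage mean as covariates.

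Adcy1, known best from neurons, was near the floor of the arrays. Its kept probe had log2 intensities of 4.64 to 5.77 over all groups, and the filter kept it through total ChREBP KO alone, so no p is given. The KO minus WT difference was -0.17 in the total line and -0.04 in the ChREBPβ line. Adcy8, another cyclase of the nervous system, had 3 probes, and in each group 0 of 8 arrays read any of them as well above background, so it has no measured change.

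The cyclases stimulated by βγ subunits, Adcy2, Adcy4 and Adcy7, differed from each other in their response. Adcy7, which is prominent in blood and immune cells, had log2 intensities of 7.66 to 8.44 (median 8.09) in total-line WT and 7.39 to 7.92 (median 7.57) in total ChREBP KO. All 8 KO arrays were below the WT mean, though the groups overlapped, and Adcy7 fell by 0.47 ± 0.11 (SE) on the log2 scale (adjusted p = 0.000920, exact permutation p = 0.00140). ChREBPβ-line WT arrays spanned 7.47 to 8.17 and ChREBPβ KO arrays 7.53 to 8.16, a log2 difference of 0.06 with a 95% interval of -0.17 to 0.29. The KO effects differed by 0.53 ± 0.16 on the log2 scale (adjusted p = 0.0140).

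Macrophage markers moved with Adcy7. All 5 of the list (Adgre1, Cd68, Csf1r, Lyz2 and Mrc1) were lower in total ChREBP KO, with a median log2 difference of -0.76, and their mean log2 intensity was 10.19 to 11.02 in total-line WT and 9.65 to 10.06 in total ChREBP KO. In ChREBPβ KO 0 of 5 were called by limma, 0 also at an unadjusted p under 0.05, with a median difference of -0.08. All 5 were also lower in ChREBPβ-line WT than in total-line WT (median -0.64), as was Adcy7, by 0.30 (adjusted p = 0.0361). The macrophage mean did not overlap between total-line WT and total ChREBP KO, so as a covariate it cannot be separated from genotype there. With the macrophage mean of each array as a covariate, the Adcy7 difference was 0.06 in total ChREBP KO (adjusted p = 0.713) and 0.25 between the WT groups (adjusted p = 0.0824). The call between the WT groups was also lost without any 1 of 8 arrays (adjusted p 0.0519 to 0.0901).

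Adcy4, a cyclase of endothelium and adipose tissue among others, was level over the 4 groups. Its group medians lay between 10.88 and 11.04, and its log2 difference was 0.11 in total ChREBP KO (95% interval -0.02 to 0.25, adjusted p = 0.174) and -0.05 in ChREBPβ KO (-0.19 to 0.08, adjusted p = 0.817). Neither passed.

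Adcy2 had lower values in the ChREBPβ line than in the total line. On its brighter probe, total-line WT arrays had 5.28 to 7.28 (median 6.48), total ChREBP KO arrays 5.71 to 6.71 (median 6.17), ChREBPβ-line WT arrays 4.30 to 4.91 (median 4.48) and ChREBPβ KO arrays 4.23 to 4.57 (median 4.45). The probe was well above background on all 16 arrays of the total line, on 3 of 8 ChREBPβ-line WT arrays and on 0 of 8 ChREBPβ KO arrays, so the last group has only a bound, the WT group of that line was mostly unmeasured, and no genotype comparison is drawn in the ChREBPβ line. The log2 difference between the WT groups was -1.85 on this probe and -0.60 on the other, without a test because the filter kept both probes through the total line alone. Its size depends on how background is handled, since it was -4.21 with the processed signal and -1.01 with normexp. The KO minus WT difference in the total line was -0.19 (95% interval -0.56 to 0.18, adjusted p = 0.422). The 8 muscle markers, of which all 8 were lower in ChREBPβ-line WT with a median log2 difference of -6.39, followed the same division of the arrays. With muscle and liver means as covariates the Adcy2 difference between the WT groups was -1.21.

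**Figure D3:**
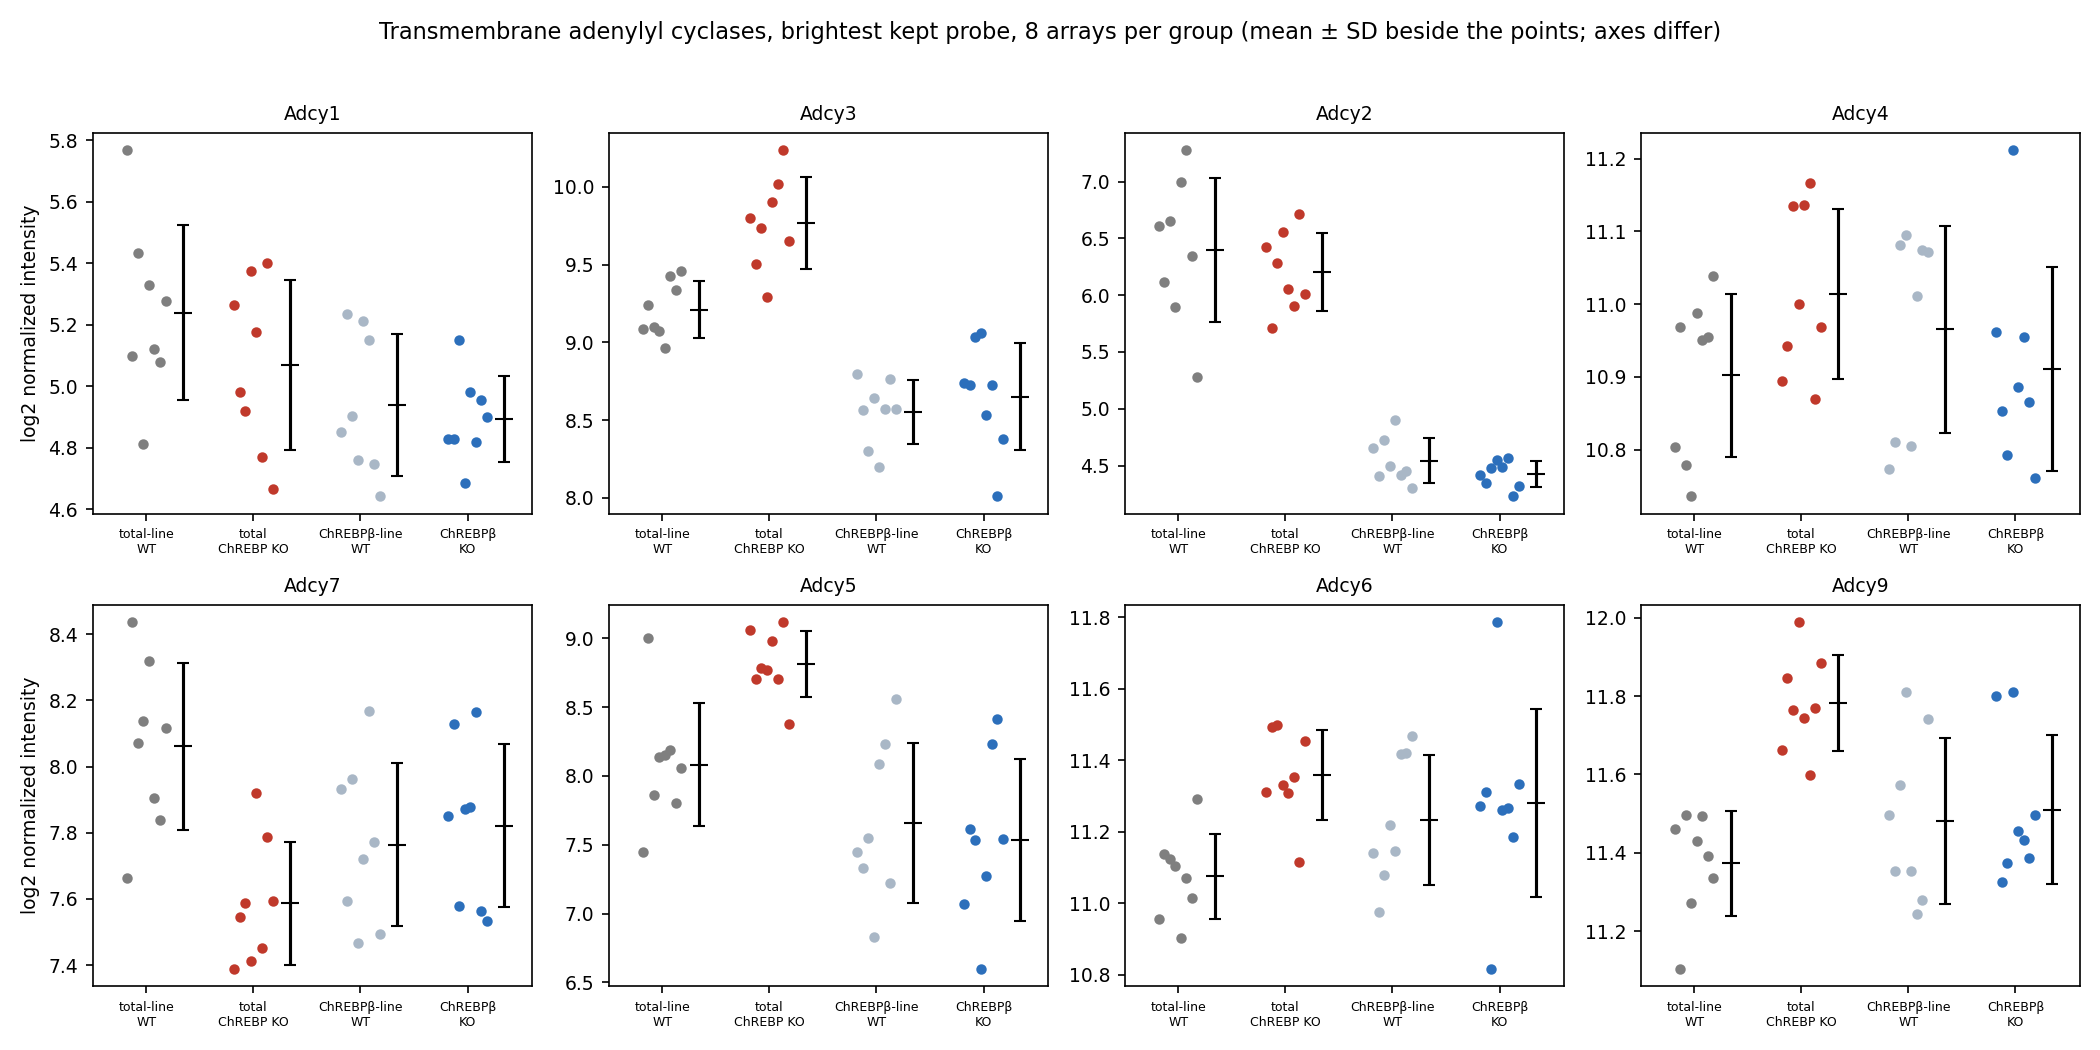
Log2 normalized intensity (y axis) of the brightest kept probe of the 8 transmembrane cyclases measured, by group (x axis), with 1 point per array, mean ± SD beside the points and a separate y axis per gene. Adcy3, Adcy5, Adcy6 and Adcy9 have higher means and Adcy7 a lower mean in total ChREBP KO than in its WT group, and Adcy2 has all ChREBPβ-line arrays at 4.91 or less and all total-line arrays at 5.28 or more.

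Adcy5 and Adcy6, the cyclases inhibited by Ca2+, both had higher values in total ChREBP KO. Adcy6 was read by a pair of probes, and the brighter, whose listed coordinates span 15 bases of its 60, had log2 intensities of 10.90 to 11.29 (median 11.09) in total-line WT and 11.12 to 11.50 (median 11.34) in total ChREBP KO. All 8 KO arrays exceeded the WT mean, and Adcy6 rose by 0.28 ± 0.09 (SE) on the log2 scale (adjusted p = 0.0103, exact permutation p = 0.000932). The second probe gave 0.29 ± 0.09 (adjusted p = 0.00692). In ChREBPβ KO the differences were 0.05 (95% interval -0.14 to 0.23) and -0.02 (-0.20 to 0.16), and neither passed. The call in total ChREBP KO was lost with slide as a block (0.19, adjusted p = 0.219).

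Adcy5 had log2 intensities of 7.45 to 9.0 (median 8.10) in total-line WT, 8.38 to 9.12 (median 8.78) in total ChREBP KO, 6.83 to 8.56 (median 7.50) in ChREBPβ-line WT and 6.60 to 8.41 (median 7.54) in ChREBPβ KO. All 8 total ChREBP KO arrays lay above the WT mean, with a log2 difference of 0.73 ± 0.23 (SE), and the difference in ChREBPβ KO was -0.12. Its probe was well above background on all 32 arrays, but the scanner software marked the spot as found on enough arrays in total ChREBP KO alone, so no p is given. With the macrophage mean as a covariate the difference in total ChREBP KO was 1.41.

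Adcy9, a widely expressed cyclase that responds little to forskolin, had log2 intensities of 11.10 to 11.50 (median 11.41) in total-line WT and 11.60 to 11.99 (median 11.77) in total ChREBP KO. The groups did not overlap, as for 16.6% of genes in this comparison, and were 0.10 apart at their nearest arrays. Adcy9 rose by 0.41 ± 0.08 (SE) on the log2 scale, or 1.33-fold (adjusted p = 0.000153, exact permutation p = 0.000155, the smallest that 8 against 8 arrays allow). ChREBPβ-line WT spanned 11.24 to 11.81 and ChREBPβ KO 11.33 to 11.81, a difference of 0.03 with a 95% interval of -0.14 to 0.20. The KO effects differed by -0.38 ± 0.12 (adjusted p = 0.0168). With the macrophage mean of each array as a covariate the rise was 0.24 (adjusted p = 0.129).

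**Figure D4:**
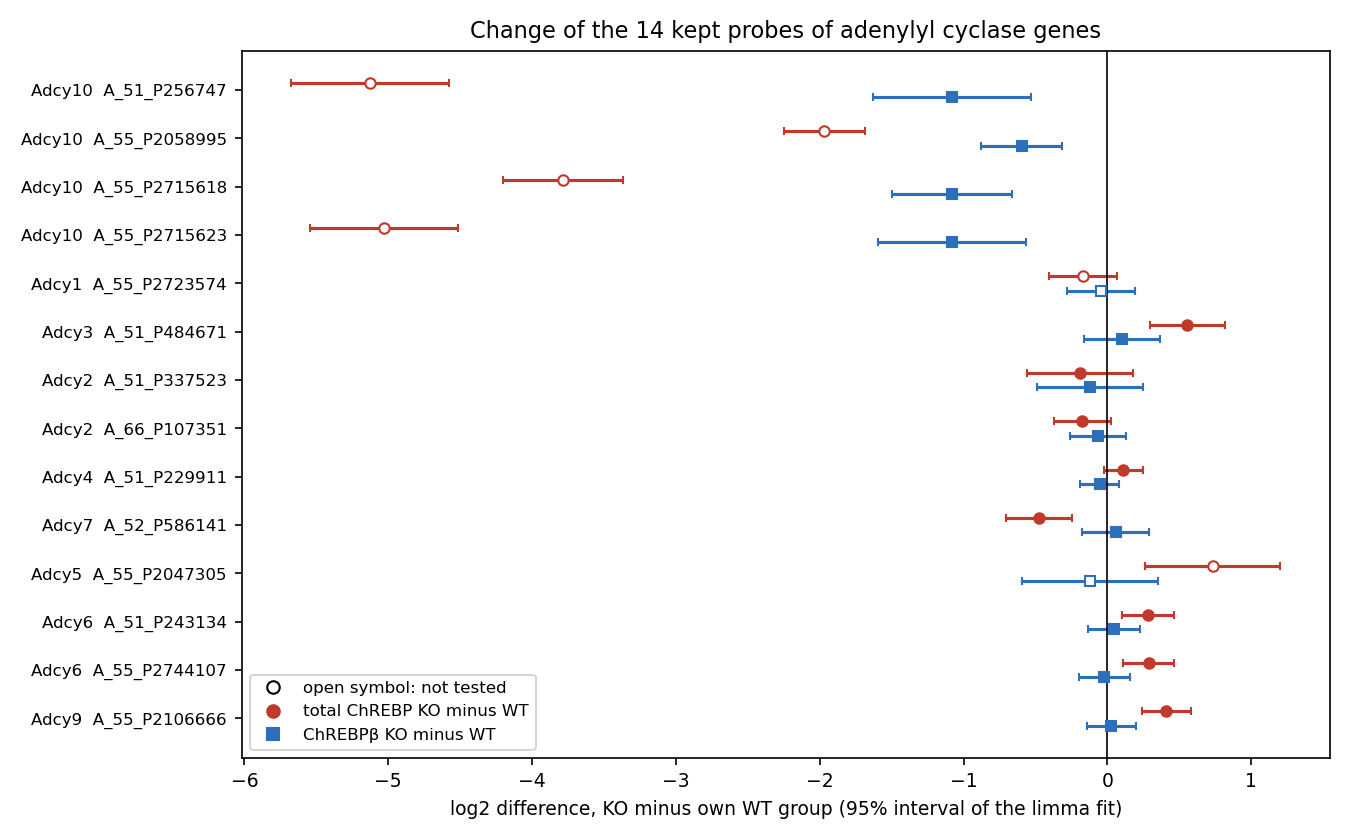
Log2 difference (x axis) between each KO group and its own WT group for the 14 kept probes (y axis), as the limma estimate with its 95% interval, with circles for total ChREBP KO, squares for ChREBPβ KO and open symbols where no test was made. The 4 Adcy10 probes lie at -5.13 to -1.97 in total ChREBP KO and at -1.08 to -0.60 in ChREBPβ KO, while all other probes lie within -0.47 and 0.73.

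Of the 6 members tested in total ChREBP KO, 4 were called, Adcy3, Adcy6 and Adcy9 as higher and Adcy7 as lower, in a comparison in which 44.1% of all genes were called (22.9% higher and 21.1% lower). In the difference between the KO effects 2 of 6 were called (Adcy7 and Adcy9) against 25.2% of all genes, and between the WT groups 2 of 5 (Adcy3 and Adcy7, both lower in the ChREBPβ line) against 38.9% (14.1% lower). The median log2 difference over the 9 kept members was 0.11 in total ChREBP KO and -0.04 in ChREBPβ KO, and over all genes it was 0.01 and -0.0030. These counts rest on few genes and are descriptions, and the comparisons that use total-line WT or total ChREBP KO share those arrays.

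Around the cyclases, 94 genes that feed, anchor, read or remove cAMP or that handle bicarbonate were listed by role, and 85 of the 87 kept were tested. In total ChREBP KO 42 were called, 26 higher and 16 lower (49.4%, against 44.1% of all genes). In ChREBPβ KO 5 were called, all higher (5.88%, against 2.70% of all genes and 1.37% as higher), namely Adrb3, Sctr, Popdc2, Car3 and Car14.

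Receptors that act on adenylyl cyclase had 1 member higher and 6 lower of 13 tested in total ChREBP KO, and 6 did not pass. Of all genes 22.9% were called as higher and 21.1% as lower there. Ptger4, a Gs-coupled receptor for prostaglandin E2, fell by 1.43 ± 0.18 (SE) on the log2 scale. Ptger3, a Gi-coupled prostaglandin receptor, fell by 0.89 ± 0.14. Mc2r, the ACTH receptor, fell by 0.94 ± 0.15, a difference that was -0.43 with the macrophage mean as a covariate (adjusted p = 0.0781). Sctr, the secretin receptor, rose in both KO groups, by 0.59 and 0.55 (adjusted p = 0.00185 and 0.0411). Adrb3, the main β-adrenergic receptor of adipocytes, had a log2 difference of -0.03 in total ChREBP KO and rose by 0.55 ± 0.15 in ChREBPβ KO (adjusted p = 0.0465). Adrb1, another β-adrenergic receptor, had log2 differences of 0.19 in total ChREBP KO and 0.01 in ChREBPβ KO, and neither passed. The calls of Sctr and Adrb3 in ChREBPβ KO were lost under 7 and 9 of 17 alternatives, and on leaving out any 1 of 11 and of 22 arrays (adjusted p up to 0.109 and 0.120). The call of Sctr in total ChREBP KO was lost with slide as a fixed block (0.35, adjusted p = 0.164).

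Gnas, which encodes the stimulatory Gα subunit, rose by 0.37 ± 0.08 on the log2 scale in total ChREBP KO (adjusted p = 0.000478) and was the 1 of 5 G protein genes called there. With the macrophage mean as a covariate it was 0.17 (adjusted p = 0.270). Of the PKA genes 3 were higher and 2 lower of 9, led by the regulatory subunits Prkar1a (0.43) and Prkar1b (0.35) among those that rose and by Prkar2a (-0.24) among those that fell. Of the anchoring proteins that hold PKA in place, 3 were higher and 1 lower of 10, with Akap13 at 0.86, Akap8 at 0.54 and Akap12 at 0.50. Beside the counts of the G protein, PKA and anchor lists, 44.1% of all genes were called in total ChREBP KO. In ChREBPβ KO limma called 0 genes of these 3 lists, and 1 of them, a PKA gene, had an unadjusted p under 0.05.

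Other proteins that bind cAMP moved in different directions. Popdc2, a cAMP-binding membrane protein, rose by 0.98 ± 0.10 in total ChREBP KO and by 0.48 ± 0.10 in ChREBPβ KO (adjusted p = 8.05e-10 and 0.00363), Rapgef3 (Epac1) rose by 0.37, and Rapgef4 (Epac2) fell by 0.52 in total ChREBP KO. Phosphodiesterases, which break cAMP down, were the list with the highest median, 0.28, in total ChREBP KO, where 9 of 16 rose and 2 fell. Over all genes 22.9% were called as higher and 21.1% as lower in that comparison. Pde7b rose by 1.26 ± 0.14, Pde4b by 0.66 ± 0.13 and Pde3b, the insulin-activated enzyme of adipocytes, by 0.65 ± 0.08. The call of Pde3b was lost with the processed signal and with normexp (adjusted p = 0.161 and 0.0737), which leave out spots marked as outliers and so kept 1 total ChREBP KO array and 2 WT arrays of its probe. In ChREBPβ KO 0 of 16 were called by limma, with 3 at an unadjusted p under 0.05. Crem, whose short products are induced by cAMP and repress its targets, rose by 1.04 ± 0.08 in total ChREBP KO, while Atf1 and the coactivator Crtc1 fell by 0.32 and 0.36. In ChREBPβ KO limma called 0 of 6 genes of this list, 0 also at an unadjusted p under 0.05.

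Carbonic anhydrases, which interconvert carbon dioxide and the bicarbonate that Adcy10 responds to, held the largest rises of the listed genes in total ChREBP KO. Car14, a membrane-bound enzyme, had log2 intensities of 7.96 to 9.27 in total-line WT and 10.79 to 11.85 in total ChREBP KO and rose by 2.84 ± 0.18 (SE). Car3, an abundant cytosolic enzyme of adipocytes and muscle, rose by 2.41 ± 0.11, from 15.14 to 15.86 in WT arrays to 17.77 to 18.01 in KO arrays. Neither gene overlapped between the groups, as for 16.6% of genes in this comparison. In ChREBPβ KO they rose by 0.65 ± 0.18 and 0.75 ± 0.11 (adjusted p = 0.0392 and 6.93e-05), and the call of Car14 was lost under 7 of 17 alternatives and on leaving out any 1 of 11 arrays. The call of Car3 was lost with the mean over its probes (0.55, adjusted p = 0.236) and with the processed signal (0.82, adjusted p = 0.0872), where 1 ChREBPβ KO array and 3 WT arrays kept a value. The call of Popdc2 was lost with slide as a fixed block (0.30, adjusted p = 0.236). Car5b, a mitochondrial enzyme, fell by 1.05 ± 0.22 in total ChREBP KO, with a difference of -0.49 under the macrophage covariate (adjusted p = 0.230). Of the 21 tested genes for bicarbonate handling 5 were higher and 2 lower there, and 14 did not pass. The share of all genes called in total ChREBP KO was 44.1%.

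**Figure D5:**
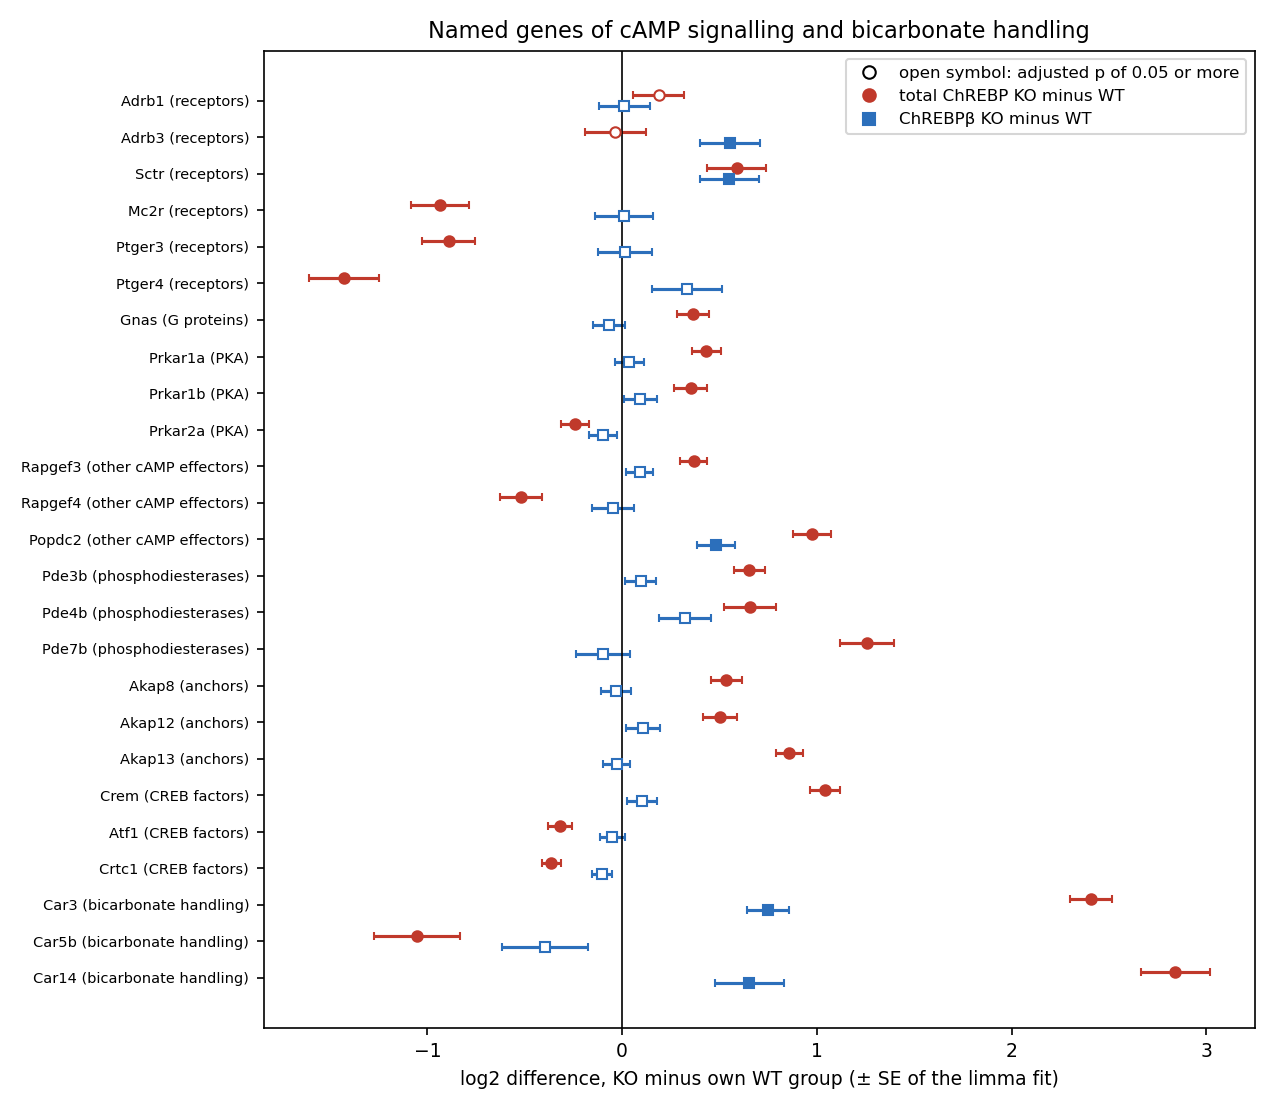
Log2 difference (x axis, ± SE of the limma fit) between each KO group and its own WT group for the named genes of the role lists (y axis), with circles for total ChREBP KO, squares for ChREBPβ KO and open symbols for an adjusted p of 0.05 or more. Car14 and Car3 stand farthest right at 2.84 and 2.41 in total ChREBP KO and Ptger4 farthest left at -1.43.

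The genes whose log2 intensity ran most like that of the brightest Adcy10 probe over the 32 arrays, out of 24522 others, were the transcript NAP114348-1 (Pearson r = 0.976), Derl1 (r = 0.976), Riok3 (r = 0.976), Yipf6 (r = 0.973) and 1700037H04Rik (r = 0.970). These values share the group differences, since each of these genes was lower in total ChREBP KO, by log2 differences of -0.61 for Riok3 to -2.05 for Derl1. After each array was set against its group mean, Yipf6, a Golgi membrane protein, remained among the 5 highest with r = 0.873, together with AV213678 (r = 0.866), Gm13610 (r = 0.857), Atp6v0a2, a subunit of the proton pump V-ATPase (r = 0.853), and an intergenic transcript of chromosome 14 (r = 0.874). The points of all these correlations share arrays and normalization, and the values are descriptions.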

How the data were processed

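Scanner output as deposited gives, for every Cy3 spot, a median intensity from Agilent Feature Extraction 10.10.1.1 that was not yet normalized between arrays. The series table of the authors has filtered, quantile normalized log2 intensities. Probe coordinates are mm9 per the file headers.

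Values were recomputed with the study's own filter and normalization. Spots stayed in if found, positive and well above background on 26 of 32 arrays or on 6 arrays of 1 group. This left 39985 of 59305 spots. Log2 median intensities were quantile normalized, and the median was taken over repeated spots of a probe. The mean absolute difference from the authors' log2 values was 0.00298. A gene was represented by its brightest kept probe. Quantile normalization sets all arrays to 1 distribution, so values are relative, and folds near background understate a change.

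Each probe was fitted with limma 3.58.1 (R 4.3.3) over 32 arrays with 4 group means. P values were two-sided, Benjamini-Hochberg adjusted over 37306 probes and called under 0.05. No p is given for probes that the filter kept only through 1 group, only through 1 genotype in KO comparisons, or only through 1 line between the WT groups. This exclusion applies to the members and role lists, while the shares called among all genes were taken over all 24523 without it. Single values were also tested by exact permutation over 12870 splits (two-sided). Labels do not say that arrays come from separate mice, so p values measure the spread between these arrays. The number of arrays limits the precision. In simulated arrays for total ChREBP KO minus WT over 37306 probes, 88.0% of changes of 0.5, 96.0% of changes of 1 and 100% of larger changes on the log2 scale were called. Among unchanged probes 17 were called. The simulation had independent noise, no batches and 50 changed probes per size, whereas 44.1% of all genes were called in the data. Its recovery need not hold for the real arrays, and ChREBPβ KO was not simulated.

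The members and the role and marker lists were chosen with earlier results of these data known. All members were named. Of the role lists, Gnas, Adrb1 and Adrb3 were named, and per list and KO comparison the called genes, or the 3 with the largest difference. Of the genes this rule names, 1 is not reported here. White adipocyte, lymphocyte, endothelial, sympathetic neuron, Schwann cell and blood markers were also read. In ChREBPβ KO limma called 0 genes of these lists (1 white adipocyte gene at an unadjusted p under 0.05), and in total ChREBP KO 1 of 4, 1 of 5, 2 of 5, 1 of 2, 0 of 4 and 0 of 3. Alternatives were other signals, normalizations, filters, blocks, weights, moderation and thresholds, the mean over probes, and leaving out each array. Covariates from marker lists were added after seeing the data. The macrophage mean did not overlap between total-line WT and total ChREBP KO, and the muscle mean did not overlap between the lines. Values with these covariates therefore cannot separate the marker level from genotype in the total line, or from line between the WT groups.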

Additional observations from a re-analysis of the deposited data

Results flagged for a closer look

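The 4 groups of each of 35 genes, the kept members and the named pathway genes, were searched for arrays far from the rest of their group, by Dixon's ratio of the gap to the range, which marks about 1 in 20 groups by chance, and for KO effects that differ between the lines by a test of the difference. Of 140 groups, 7 held such an array. The ratio was 0.556 for Adcy4 in ChREBPβ KO replicate 4 (log2 intensity 11.21, the next array 10.96). It was 0.553 for Adrb3 in total-line WT replicate 2, 0.535 for Adrb3 and 0.546 for Sctr in total ChREBP KO replicate 3, 0.593 for Prkar1b in ChREBPβ KO replicate 4, 0.703 for Rapgef3 in ChREBPβ KO replicate 2 and 0.601 for Akap12 in total ChREBP KO replicate 2.

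KO effects differed between the lines (ChREBPβ KO minus total ChREBP KO effect, limma, log2 scale) for 2 members, Adcy7 by 0.53 and Adcy9 by -0.38 (adjusted p = 0.0140 and 0.0168). Among pathway genes the difference was positive for Adrb3 (0.59), Ptger4 (1.76), Mc2r (0.95), Ptger3 (0.91), Rapgef4 (0.47), Crtc1 (0.26) and Atf1 (0.27), and negative for Gnas (-0.43), Prkar1a (-0.39), Popdc2 (-0.49), Rapgef3 (-0.28), Pde7b (-1.36), Pde3b (-0.56), Akap13 (-0.89), Akap8 (-0.57), Akap12 (-0.39), Crem (-0.94), Car14 (-2.19) and Car3 (-1.66). The adjusted p was highest for Adrb3, at 0.0481, and lowest for Car3, at 4.81e-10. Most of these genes were named for their total ChREBP KO effect, which enters the difference with the opposite sign, so the directions are no separate result. Of all genes 25.2% were called for this difference, and of the tested role lists 36.5%.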

How the results depend on the processing

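Of 1477 single values under 17 alternatives, 1410 kept their call, or their value within 1 SD. Results not called as reported are among these and had no call to lose. A call was lost with the same sign for 48 values. Adcy7 changed sign with the macrophage mean as a covariate, to 0.06 in total ChREBP KO and 0.25 between the WT groups. That alternative was chosen after seeing the data and cannot be separated from genotype in the total line. Members called in total ChREBP KO were 4, and 2 with that covariate (Adcy3 and Adcy6). In ChREBPβ KO the count of 1 became 0 with the processed signal, a block for wash batch, a fixed block for slide and an adjusted p under 0.01 (1, 1, 2 and 1 members at an unadjusted p under 0.05 by limma). For the difference between the KO effects the count of 2 became 0 at an adjusted p under 0.01 and with the macrophage covariate (3 and 2 unadjusted). Between the WT groups it became 1, Adcy3, with the own groups only, at an adjusted p under 0.01 and with either covariate set. Pathway genes called in ChREBPβ KO, 5 as reported, were 2 with the processed signal, without a filter and at an adjusted p under 0.01, 3 with wash batch as a block and with the own groups only, and 1 with slide as a fixed block. The call of Atf1 in total ChREBP KO was lost with the macrophage covariate (-0.23, adjusted p = 0.0507) and that of Prkar2a with slide as a fixed block (-0.22, adjusted p = 0.0877). The causes were not tested.

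Leaving out each array in turn gave 4 to 4 members called in total ChREBP KO and 0 to 1 in ChREBPβ KO (0 without ChREBPβ KO replicate 4). It gave 2 to 4 for the difference (4 without that array) and 1 to 2 between the WT groups (1 without total-line WT 2, 4, 5 or 8 or ChREBPβ-line WT 2, 4, 5 or 8). Pathway counts were 41 to 45 in total ChREBP KO and 2 to 5 in ChREBPβ KO. The latter were 3 without ChREBPβ KO 1, 4, 5, 6 or 7 or ChREBPβ-line WT 2, 4 or 8, and 2 without ChREBPβ KO 2 or 8 or ChREBPβ-line WT 1 or 3. Same-numbered arrays correlated at -0.30 to 0.08 in the total line, where 0 of 8 pairs were over 0.1, and at -0.20 to 0.53 in the ChREBPβ line, where 6 of 8 were. As not every pair was over 0.1 in either line, the arrays were not taken as paired. In the ChREBPβ line 1 of 8 arrays correlated best with its own number. With the replicate number as a block the members called were 4, 1, 2 and 2 and pathway genes 44 and 4, and Adcy10 in ChREBPβ KO had an adjusted p of 0.0434. Values of Adcy1 in all groups and of Adcy2 in the ChREBPβ line lie near background. Those of Adcy10 in total ChREBP KO were low, though well above background on the brightest probe. The log2 difference of Adcy10 there ranged from -5.57 to -3.98 over the 17 alternatives. It was -4.56 with normexp, which adds an offset of 50 to each intensity, and -3.98 with the mean over its 4 probes.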

Other observations

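The genes next to Adcy10 on chromosome 1, taken from the order of genes in RefSeq's GRCm38.p6 annotation, were also read. Of the 3 genes on each side, Mpc2 and Dcaf6 had a kept probe. Mpc2, a subunit of the mitochondrial pyruvate carrier and the nearest gene, had a mean log2 intensity of 16.66 ± 0.07 (SD, n = 8) in total-line WT and 15.94 ± 0.15 in total ChREBP KO, a fall of 0.72 on the log2 scale (limma adjusted p = 1.74e-10). In ChREBPβ KO it fell by 0.24 (adjusted p = 0.0445), and the KO effects differed by 0.48 (adjusted p = 0.000301). Dcaf6, which encodes a substrate receptor of a ubiquitin ligase, fell by 1.26 and 0.60 (adjusted p = 9.87e-11 and 0.00232), with a difference between the KO effects of 0.66 (adjusted p = 0.00265). Of all genes, 44.1% were called in total ChREBP KO (21.1% as lower) and 2.70% in ChREBPβ KO (1.33% as lower). For the difference between the KO effects 25.2% were called. The other 4 neighbours are 3 pseudogenes and a long noncoding RNA with no kept probe. Whether these genes share a control with Adcy10 was not tested.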
